A study of Mus musculus with 12 samples.

Results

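The colony stimulating factor family was followed through 8 genes on 12 microarrays of mouse primary macrophages. The genes were 3 ligands (Csf1, Il34 and Csf2) and 5 receptor chains (Csf1r, Csf2ra, Csf2rb, Csf2rb2 and Csf3r). They were taken by gene symbol from the array's annotation, with the probe set of the highest mean level per gene, and all 8 were found among the 22180 genes tested. Csf2 had 2 probe sets and the others had 1 each. The arrays formed 4 groups of 3. WT macrophages and KO macrophages were cultured alone, and WT TAMs and KO TAMs (tumour-associated macrophages) were macrophages kept for 72 h with 5TGM1, a mouse multiple myeloma line. KO stands for a knockout of Cd36, a scavenger receptor that takes up fatty acids and oxidised lipoproteins. The age and sex of the animals, the way the knockout was made, the tissue of origin and the step that removed the myeloma cells have no entry in the labels. How long the cells cultured alone were kept is not recorded, so time in culture and the presence of myeloma cells cannot be told apart. Nothing says that replicates came from separate animals or cultures, so p-values measure only the spread between these arrays, which may be technical.

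Colony stimulating factors are secreted proteins that keep myeloid cells alive and direct their growth and maturation. Csf1 (M-CSF) and interleukin-34, encoded by Il34, both bind the receptor tyrosine kinase CSF1R, on which most tissue macrophages depend for survival. Csf2 (GM-CSF) binds a receptor made of the ligand-specific alpha chain Csf2ra and a common beta chain, encoded in mice by Csf2rb, that passes the signal to JAK2 and STAT5. Mice carry a further beta chain gene, Csf2rb2, whose product serves interleukin-3. Csf3r encodes the receptor of G-CSF, best known from neutrophils and also expressed by monocytes and macrophages.

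Levels are log2 of the deposited RMA intensity (RMA corrects background, brings arrays to 1 distribution and summarises probes), and each value belongs to 1 probe set, so levels of different genes are not set against each other. Differences are log2 differences between group means ± the standard error of a limma fit over all 12 arrays, with n = 3 arrays per group. Means of a group carry their SD. A gene rose, fell or changed where the limma p, after Benjamini-Hochberg adjustment across 22180 genes, stayed under 0.05.

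Cd36, the targeted gene, was between 12.10 and 12.53 in WT cells and between 8.45 and 9.66 in KO cells, with no overlap. Its level was 10.5-fold lower in KO macrophages and 10.6-fold lower in KO TAMs, with a two-sided exact permutation p of 0.1 in each case, below which 3 arrays against 3 cannot go. The KO arrays also differed from the WT arrays in sex-linked genes. Xist was between 11.08 and 11.32 in WT cells and between 3.91 and 4.35 in KO cells, and the Y-linked Uty was at 3.27 to 3.91 in WT and 9.71 to 9.99 in KO cells, so the knockout and this difference cannot be told apart in any genotype comparison given here. The macrophage markers Adgre1 (12.16 to 12.83), Cd68 (12.05 to 13.07) and Itgam (12.09 to 12.71) were high on every array. The median gene had a mean level of 5.34. Of 13 myeloma and plasma cell markers 7 lay below it, a share that does not set them apart from genes at large. Jchain (3.28 to 3.84) and Tnfrsf17 (3.35 to 4.09) were among the 7, while the mean of all 13 was 5.91 to 6.22 on every array. With co-culture 3 of the 13 fell in WT cells and 1 in KO cells, and none rose. Over all genes 5.66% and 3.63% fell. How much myeloma RNA the TAM samples held was not tested. WT TAM 2 lay more than 1 log2 unit from the mean of its group's other arrays in 414 genes, KO TAM 1 in 550 and KO TAM 3 in 303, against 4 to 113 for the remaining 9 arrays.

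The promoter windows of receptor genes that differed between groups are shown first, since the values given for Csf2ra, Csf2rb2 and Csf3r are those of the genes they precede. RefSeq windows (assembly GRCm38.p6) of 300 bases, from 250 before the annotated start to 50 after it, matched 5 of the 8 genes by symbol. Il34, Csf1r and Csf2rb had no entry. Capitals mark GAGGAA, the core sequence bound by the myeloid factor PU.1, and TTCNNNGAA, the sequence bound by STAT factors, on either strand. The Csf2ra window lies at chr19:61228369-61228668, minus strand, that of Csf2rb2 at chr15:78305672-78305971, minus strand, and that of Csf3r at chr4:126024409-126024708, plus strand, each printed in the direction of transcription.
Csf2ra: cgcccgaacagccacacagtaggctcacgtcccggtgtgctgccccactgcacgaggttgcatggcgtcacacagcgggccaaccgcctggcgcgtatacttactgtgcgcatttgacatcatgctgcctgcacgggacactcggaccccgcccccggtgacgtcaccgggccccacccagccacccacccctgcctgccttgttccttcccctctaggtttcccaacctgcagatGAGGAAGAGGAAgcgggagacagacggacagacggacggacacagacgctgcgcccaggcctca
Csf2rb2: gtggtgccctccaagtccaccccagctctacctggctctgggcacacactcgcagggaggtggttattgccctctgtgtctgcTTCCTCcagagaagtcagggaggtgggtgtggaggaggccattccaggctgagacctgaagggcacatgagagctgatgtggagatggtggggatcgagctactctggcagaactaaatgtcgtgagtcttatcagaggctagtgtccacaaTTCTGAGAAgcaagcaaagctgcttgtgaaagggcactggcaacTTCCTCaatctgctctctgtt
Csf3r: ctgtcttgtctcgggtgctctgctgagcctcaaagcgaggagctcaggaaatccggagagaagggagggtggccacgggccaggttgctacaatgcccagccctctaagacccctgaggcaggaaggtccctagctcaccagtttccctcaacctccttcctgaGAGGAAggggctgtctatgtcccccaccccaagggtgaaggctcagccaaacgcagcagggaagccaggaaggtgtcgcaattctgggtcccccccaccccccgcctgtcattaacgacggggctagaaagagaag
Csf2ra carried a pair of GAGGAA matches side by side, beginning 14 and 8 bases before the start. Csf2rb2 carried GAGGAA on the opposite strand 167 bases before and 29 bases after the start, and TTCNNNGAA 15 bases before it. Csf3r carried 1 GAGGAA match, 86 bases before the start. The windows of Csf1 and Csf2 held neither motif. GAGGAA was found in 28.3% and TTCNNNGAA in 8.3% of 32851 windows of the same length, and these matches describe the letters alone.

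**Figure D1:**
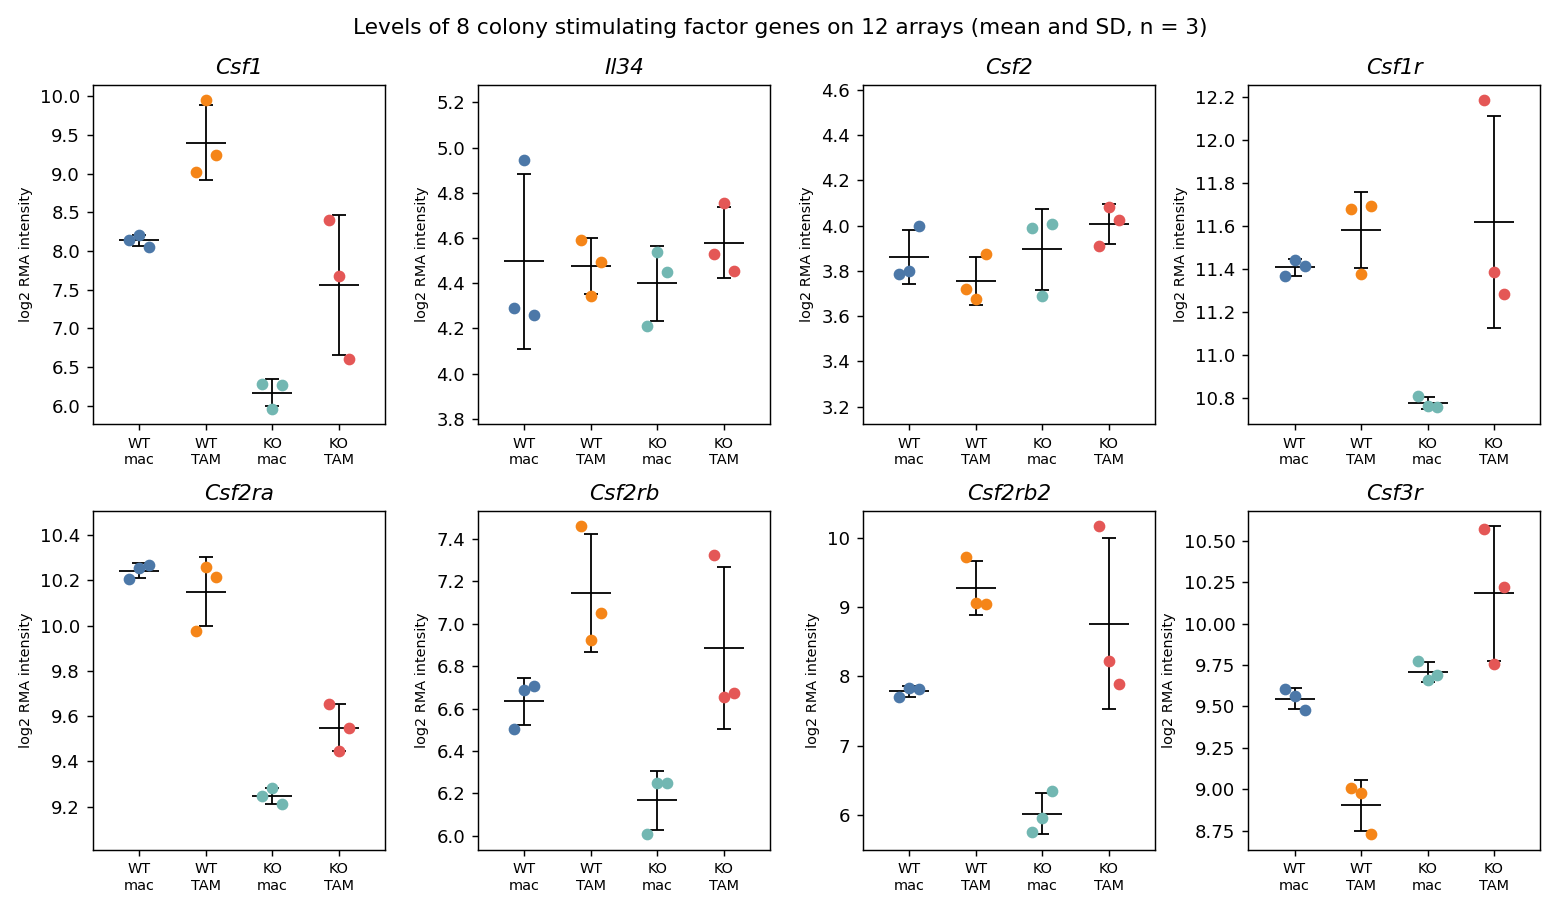
Log2 RMA intensity of each gene on every array; points are arrays (1, 2 and 3 from left to right within a group), horizontal bars are group means and vertical bars SD, n = 3, with a separate vertical scale per gene. Csf1 is lowest in KO macrophages (6.17) and highest in WT TAMs (9.40), Csf3r runs the other way in WT TAMs (8.90), and Il34 and Csf2 stay within 4.21 to 4.94 and 3.67 to 4.08.

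Csf1 was higher in co-culture and lower in the knockout. WT macrophages read 8.15, 8.21 and 8.05, WT TAMs 9.02, 9.95 and 9.24, KO macrophages 6.27, 5.96 and 6.27, and KO TAMs 8.40, 7.67 and 6.61. All WT TAM arrays lay above all WT macrophage arrays and all KO TAM arrays above all KO macrophage arrays, while KO TAMs and WT macrophages overlapped. Csf1 rose 2.4-fold with co-culture in WT cells (1.26 ± 0.36, adjusted p = 0.0394) and 2.63-fold in KO cells (1.39 ± 0.36, adjusted p = 0.038). Its level in the knockout was 25.6% of the WT level in macrophages (-1.97 ± 0.36, adjusted p = 0.00451) and 27.9% in TAMs (-1.84 ± 0.36, adjusted p = 0.00579). The co-culture differences of the genotypes differed by 0.13 ± 0.50 (adjusted p = 0.965), with a 95% interval from -0.97 to 1.23.

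The macrophage genotype difference of Csf1 kept its call under every alternative run (adjusted p up to 0.0231), and that between TAMs was lost in the fit of TAM groups alone (adjusted p = 0.0777). The co-culture call of WT cells was lost without WT macrophage 1, 2 or 3, WT TAM 2 or WT TAM 3 (adjusted p up to 0.124), and that of KO cells without any KO macrophage array, KO TAM 1 or KO TAM 2 (up to 0.131). Both calls were also lost with a trend and robust eBayes prior. The KO call was lost too with an offset of 16 before log2 and in the fit of KO groups alone. Among KO TAM arrays, KO TAM 3 lay closest to KO macrophages.

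Csf1 is made by stromal cells as well as by macrophages, and some stromal genes moved with it. The mean level of 14 stromal and endothelial markers was 6.27 to 6.34 on WT macrophage arrays, 6.79 to 7.42 on WT TAM arrays, 5.16 to 5.23 on KO macrophage arrays and 5.45 to 6.39 on KO TAM arrays. The collagen gene Col1a2 had differences of -2.74 between macrophage genotypes and -2.39 between TAM genotypes, and Col1a1 of -2.56 and -2.32, all 4 called. Averaging the probe sets of Col1a2 gave -1.95 between macrophages, leaving out KO TAM 3 gave -1.66 for Col1a1 between TAMs, and both TAM calls were lost in the fit of TAM groups alone (adjusted p = 0.0507 for Col1a2 and 0.0861 for Col1a1). Across the 12 arrays, which share these groups, the Pearson r with Csf1 lay between 0.52 and 0.992 for 9 of the 14 markers, highest for Col1a2 and lowest for Dcn. It lay between -0.33 and -0.06 for the other 5 (Cdh5, Thy1, Cldn5, Tek and Lum). Of the 14 markers, 5 fell and none rose in KO macrophages, where 6.13% of all genes fell and 5.19% rose, and 7 fell and none rose in KO TAMs against WT TAMs, where 7.19% fell and 5.03% rose. With co-culture 3 rose in WT cells and 2 in KO cells and none fell, where 5.89% and 2.90% of all genes rose. The WT calls of Col1a2 and Col3a1 were lost without single arrays (adjusted p up to 0.151 and 0.131). The KO call of Col1a2 was lost in the same way and in the fit of KO groups alone (up to 0.0867). Those of Kdr in WT cells and Dcn in KO cells held under every alternative run. Markers with a mean level below the median gene included Lum (2.86 to 3.38), Thy1 (4.94 to 5.53) and Cdh5 (5.05 to 5.59). In RNA of many cells together, fewer cells of a type and less RNA per cell cannot be told apart. The part of stromal cells in the Csf1 differences was not tested.

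**Figure D2:**
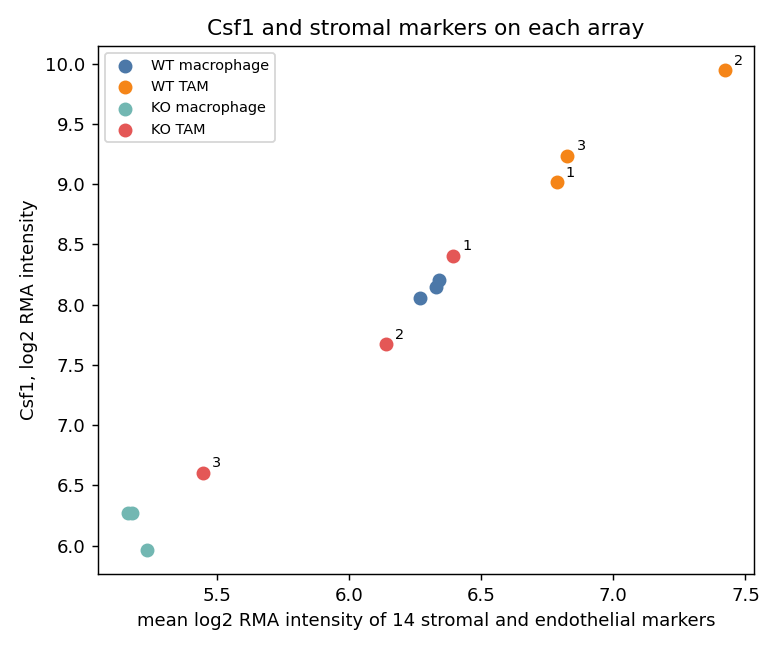
Csf1 level against the mean level of 14 stromal and endothelial markers on each array, both as log2 RMA intensity; colours are groups and numbers are the replicates of TAM arrays. KO macrophages lie at the low end (marker mean 5.16 to 5.23) and WT TAM 2 at the high end (marker mean 7.42, Csf1 9.95).

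The genes most like Csf1 over the 12 arrays, among 10319 named genes above the median level, were Pls3 (r = 0.997), Ddr2 (0.994) and Cpe (0.994). Ddr2, a collagen receptor, averaged 7.45 in WT TAMs, 6.19 in WT macrophages, 5.31 in KO TAMs and 4.16 in KO macrophages. Kitl, which encodes the related growth factor stem cell factor, also fell in the knockout, with differences of -1.79 in macrophages (adjusted p = 0.00188) and -1.70 in TAMs (adjusted p = 0.00223). Osmr, the oncostatin M receptor, differed by -2.04 and -1.73 in the same comparisons. The TAM call of Osmr was lost on leaving out WT TAM 2 or either of KO TAM 2 and KO TAM 3 (adjusted p up to 0.0715). It was also lost in the fit of TAM groups alone (adjusted p = 0.137). Of 15 related cytokine and receptor genes measured, 1 rose and 3 fell between KO and WT macrophages, and 2 rose and 2 fell between TAM genotypes, where 11.3% and 12.2% of all genes were called.

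The other ligands gave low and level readings. Il34 lay between 4.21 and 4.94 and its 4 groups overlapped, with means of 4.58 ± 0.16 in KO TAMs, 4.50 ± 0.39 in WT macrophages, 4.48 ± 0.12 in WT TAMs and 4.40 ± 0.17 in KO macrophages. The largest Il34 difference was 0.18 between KO TAMs and KO macrophages, with a 95% interval from -0.19 to 0.55. Csf2 lay between 3.67 and 4.08, and its other probe set between 2.93 and 3.43. KO TAMs read 3.91, 4.08 and 4.03 for Csf2 and WT TAMs 3.72, 3.67 and 3.87, a difference of 0.25 ± 0.11 that did not pass (adjusted p = 0.17). Csf3, which encodes the ligand of Csf3r and was not among the 8, was as flat at 3.50 to 3.95, and so was Il3 at 3.36 to 4.08. Whether these low readings lay above the background of their probe sets was not tested.

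**Figure D3:**
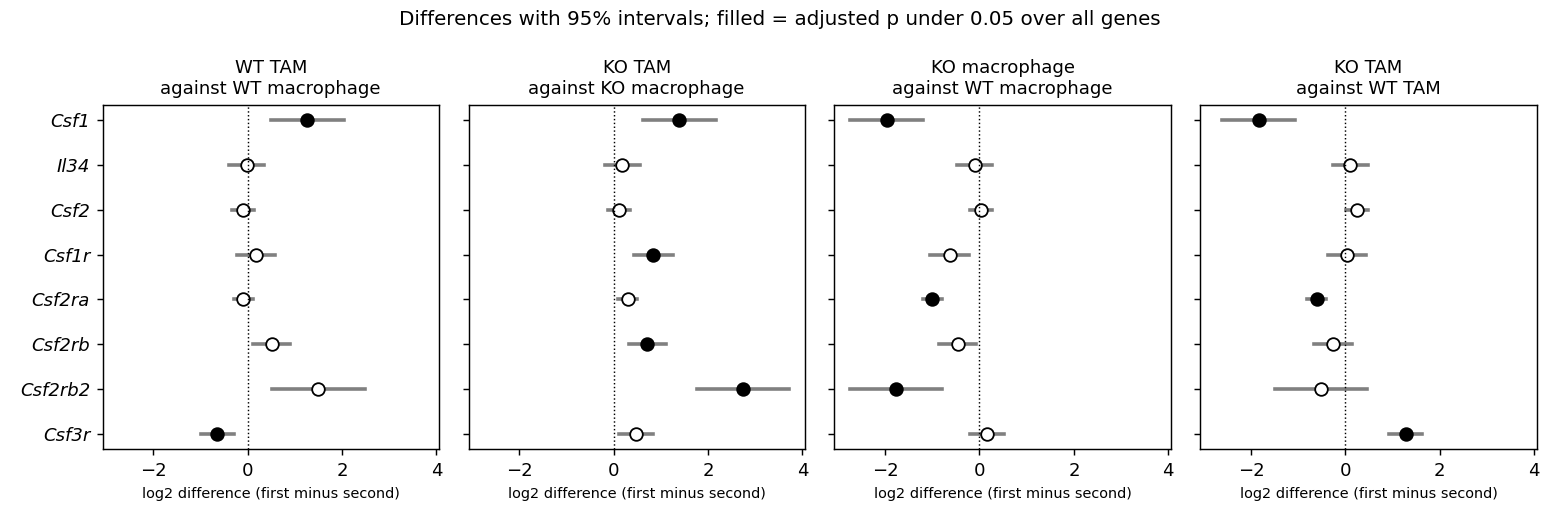
Log2 differences between group means (first named minus second) with 95% intervals of the limma fit, n = 3 arrays per group; filled points have an adjusted p under 0.05. Csf1 is filled in all 4 comparisons, Csf2ra in both genotype comparisons, and Csf3r lies below 0 in WT TAMs (-0.64) and above 0 in KO TAMs (0.47, not filled).

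Csf1r, the receptor of Csf1, was read high in every group and was lowest in KO macrophages. Its levels were 11.37, 11.44 and 11.41 in WT macrophages, 11.68, 11.38 and 11.69 in WT TAMs, 10.81, 10.77 and 10.76 in KO macrophages, and 12.18, 11.39 and 11.29 in KO TAMs. Every KO macrophage array lay below every other array. Csf1r rose 1.79-fold with co-culture in KO cells (0.84 ± 0.19, adjusted p = 0.0212), and in WT cells the difference was 0.17 ± 0.19 (adjusted p = 0.656). The difference between these responses was 0.67 ± 0.27 and did not pass (adjusted p = 0.444). The level in KO macrophages was 64.6% of that in WT macrophages, just short of the threshold (-0.63 ± 0.19, adjusted p = 0.051). Between TAM genotypes the difference was 0.04 ± 0.19. KO TAM 1 was the highest array of all, and without KO TAM 1 and WT TAM 2 the KO TAM level was below that of WT TAMs by a log2 difference of -0.35 (adjusted p = 0.00928). The co-culture call in KO cells was lost without any 1 of the KO macrophage arrays (adjusted p up to 0.0748) and in the fit of KO groups alone (adjusted p = 0.106).

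Csf1r was most like Cxcl16 (r = 0.973), Rnpepl1 (0.967) and Rnpep (0.950) over the 12 arrays. Cxcl16, a chemokine that also acts as a scavenger receptor, averaged 11.19 in WT TAMs, 11.02 in KO TAMs, 10.68 in WT macrophages and 9.95 in KO macrophages.

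Csf2ra, the alpha chain that binds GM-CSF, separated the genotypes. WT macrophages read 10.21, 10.25 and 10.27, WT TAMs 9.98, 10.26 and 10.22, KO macrophages 9.25, 9.28 and 9.21, and KO TAMs 9.65, 9.45 and 9.55. No KO array reached the lowest WT array. Csf2ra was 50.1% of the WT level in KO macrophages (-0.996 ± 0.092, adjusted p = 0.000112) and 65.9% in KO TAMs (-0.60 ± 0.09, adjusted p = 0.00151). Both calls held under every alternative run. Co-culture differences did not pass, at -0.09 ± 0.09 in WT cells (adjusted p = 0.629) and 0.30 ± 0.09 in KO cells (adjusted p = 0.0762), although KO TAM and KO macrophage arrays did not overlap. The difference between the responses was 0.39 ± 0.13 (adjusted p = 0.327). Nup93 (r = 0.979), Aprt (0.975) and Sec31a (0.975) were the genes most like it.

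The beta chain genes Csf2rb and Csf2rb2 lie next to each other on chromosome 15 in the RefSeq annotation and read higher in TAMs. They are close paralogues, so how far their probe sets read each other's transcripts is uncertain. Csf2rb2 read 7.70, 7.84 and 7.81 in WT macrophages, 9.73, 9.06 and 9.04 in WT TAMs, 5.76, 5.95 and 6.34 in KO macrophages, and 10.17, 8.22 and 7.89 in KO TAMs. WT and KO TAMs overlapped, both lay above WT macrophages, and KO macrophages lay below all other arrays. Csf2rb2 rose 6.7-fold with co-culture in KO cells (2.75 ± 0.45, adjusted p = 0.00439), the largest of the differences measured for the 8 genes. Without KO TAM 1 the difference was 2.04 and still called, and in the fit of KO groups alone the call was lost (adjusted p = 0.0521). In WT cells its co-culture difference was 1.50 ± 0.45 (2.82-fold), just short of the threshold (adjusted p = 0.0522). The responses differed by 1.25 ± 0.64 (adjusted p = 0.573). Csf2rb2 was at 29.4% of the WT level in KO macrophages (-1.77 ± 0.45, adjusted p = 0.0258), a call lost without any 1 array of either macrophage group (adjusted p up to 0.0909).

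Csf2rb, the beta chain that GM-CSF, interleukin-3 and interleukin-5 receptors share, moved the same way within a narrower range. Its levels were 6.51, 6.69 and 6.71 in WT macrophages, 7.46, 6.92 and 7.05 in WT TAMs, 6.01, 6.25 and 6.25 in KO macrophages, and 7.33, 6.66 and 6.68 in KO TAMs. TAM arrays of each genotype lay above its macrophage arrays. Csf2rb rose 1.64-fold with co-culture in KO cells (0.72 ± 0.18, adjusted p = 0.0363). This call was lost without any 1 KO macrophage array or KO TAM 1 and in the fit of KO groups alone (adjusted p up to 0.133). In WT cells the difference was 0.51 ± 0.18 (adjusted p = 0.101) and between macrophage genotypes -0.47 ± 0.18 (adjusted p = 0.13), and neither passed.

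KO TAM 1 carried the highest reading of its group for Csf1, Csf1r, Csf2ra, Csf2rb, Csf2rb2 and Csf3r. Without it the KO TAM level of Csf2rb2 was lower than that of WT TAMs (-1.22, adjusted p = 0.00271), and so was that of Csf2rb (-0.48, adjusted p = 0.0484), where neither passed with all arrays (-0.52, adjusted p = 0.541, and -0.26, adjusted p = 0.426). Over the 12 arrays Csf2rb and Csf2rb2 had a Pearson r of 0.97, and Csf2rb2 and Csf1r one of 0.942. Trappc11 was among the 3 genes most like Csf2rb (r = 0.982) and among those most like Csf2rb2 (0.985), where Spop ranked first (0.986).

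Csf3r, the G-CSF receptor, was the receptor that fell with co-culture in WT cells. WT macrophages read 9.60, 9.56 and 9.48, WT TAMs 9.01, 8.98 and 8.73, KO macrophages 9.77, 9.66 and 9.69, and KO TAMs 10.57, 9.76 and 10.22. WT TAM arrays lay below all others, and KO TAM 2 fell within the range of KO macrophages. Csf3r fell to 64% of the WT macrophage level in WT TAMs (-0.64 ± 0.16, adjusted p = 0.0234), a call lost without any 1 WT macrophage array or WT TAM 3 (adjusted p up to 0.087). In KO cells the difference was 0.47 ± 0.16 and did not pass (adjusted p = 0.113). KO TAMs read 2.43-fold above WT TAMs (1.28 ± 0.16, adjusted p = 0.000498), a call that held under every alternative run, while the macrophage genotypes differed by 0.16 ± 0.16 (adjusted p = 0.603).

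The co-culture responses of Csf3r differed by 1.12 ± 0.23 between the genotypes, which did not pass over all genes (adjusted p = 0.0888). It passed without KO TAM 1, without KO TAM 2, without WT TAM 2 and KO TAM 1 together, and with array weights, and the adjusted p over all its alternatives ran from 0.0128 to 0.241. Neutrophil genes, which often accompany Csf3r, were low: 12 of 14 granulocyte markers had a mean level below the median gene, S100a8 (2.78 to 3.37), S100a9 (3.60 to 4.17) and Ly6g (2.49 to 3.82) among them. None of the 14 was called for co-culture in WT cells, for co-culture in KO cells or between TAM genotypes. Over all genes 11.5%, 6.53% and 12.2% were called there, so a count of 0 among 14 says little. Between macrophage genotypes, where 11.3% of all genes were called, Mmp8 fell (-3.43). This call was lost without any 1 macrophage array (adjusted p up to 0.0784). All 12 mast cell, basophil and eosinophil markers and 8 of 11 T and NK cell markers were below the median gene too. So were 5 of 9 dendritic cell markers, a share that does not set them apart from genes at large. Among called markers of these lists, Cd4 had KO minus WT differences of 2.14 for macrophages and 2.06 for TAMs. Cd28 rose with co-culture by 2.03 in WT and 1.47 in KO cells, and Batf3 and Xcr1 fell in both. H2-Ab1 differed by -2.15 between macrophage genotypes. This call and the KO call of Cd28 were lost without single macrophage arrays (adjusted p up to 0.096 and 0.0624). The KO call of Cd28 was also lost in the fit of KO groups alone. Abi3 (r = 0.975), Inpp5k (0.961) and Fcgr4 (0.953), an activating Fc receptor, were the genes most like Csf3r.

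Counted together, 2 of the 8 genes were called between WT TAMs and WT macrophages, 1 higher and 1 lower, where 11.5% of all genes were called, 5.89% higher and 5.66% lower. In KO cells 4 of 8 rose with co-culture and none fell, where 6.53% of all genes were called, 2.90% higher and 3.63% lower. Between KO and WT macrophages 3 of 8 fell (11.3% of all genes called, 5.19% higher and 6.13% lower), and between KO and WT TAMs 1 rose and 2 fell (12.2% of all genes called, 5.03% higher and 7.19% lower). None passed for the difference between the co-culture responses by limma, where 0.194% of all genes did (0.104% higher and 0.0902% lower), and 3 of the 8 had an unadjusted p under 0.05, as did 2130 genes in all. The median difference of the 8 was 0.60 for co-culture in KO cells, against -0.01 over all genes, and -0.55 between macrophage genotypes, against 0.04 over all genes. The groups of arrays did not overlap for 4, 5, 6 and 4 of the 8 in these comparisons, where the shares over all genes were 30.1%, 26.3%, 38.5% and 24.6%. The co-culture and genotype comparisons share groups of arrays and are not independent. The WT co-culture count was 0 without WT macrophage 1, 2 or 3 or WT TAM 3 and 1 without WT TAM 2. The KO co-culture count was 1 without KO macrophage 1, 2 or 3 and 2 without KO TAM 1, the TAM genotype count was 5 without KO TAM 1, and the count for the difference of responses was 1 without KO TAM 1 or KO TAM 2. Calls over all genes shifted too. WT co-culture calls went from 2561 to between 1475 and 1619 without 1 WT macrophage array. They were 1941 without WT TAM 3 and 2671 without WT TAM 2. KO co-culture calls went from 1449 to between 611 and 647 without 1 KO macrophage array, and to 1219 without KO TAM 1. TAM genotype calls went from 2710 to 3710 without KO TAM 1. For the difference of responses, 43 calls became 444 without KO TAM 1 and 48 without KO TAM 2.

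Genes that relay signals from these receptors mostly fell or stayed level in TAMs. Of 30 measured, 12 fell and none rose in WT TAMs, and 5 fell and none rose in KO TAMs, with medians of -0.09 and -0.16, where 5.66% and 3.63% of all genes fell. Sos1, which activates Ras downstream of CSF1R, fell in WT TAMs (-1.99, adjusted p = 6.98e-05) and in KO TAMs (-0.82, adjusted p = 0.0207), and was higher in KO than in WT TAMs by 0.78. Dok3, an inhibitory adaptor, had differences of -1.30 and -1.01, and Pik3cg, a catalytic subunit of PI3 kinase, of -1.51 and -1.34. The KO co-culture calls of Sos1 and Pik3cg were lost without single arrays (adjusted p up to 0.0781 and 0.107), and so was the Sos1 call between TAM genotypes (up to 0.068). Each of these calls was also lost in the fit of the compared groups alone (adjusted p = 0.114 and 0.126 for Sos1). The adaptor Gab3, which acts in CSF1R signalling, was higher in KO macrophages by 0.89 (adjusted p = 0.00434).

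Among the genes of JAK2 and STAT5, the kinase and transcription factors of the GM-CSF receptor, only Jak2 passed in any comparison. Jak2 fell by 0.39 in WT TAMs (adjusted p = 0.01) and was 0.44 higher in KO than in WT TAMs (adjusted p = 0.00549). Stat5a ranged from 6.51 to 7.29 and Stat5b from 8.01 to 8.59, and neither Stat5 gene passed in any of the 5 comparisons. Tyrobp, an adaptor that works with CSF1R, differed by at most 0.21 between the groups compared, and Adam17, the protease that sheds CSF1R from the cell surface, by at most -0.13, and neither passed.

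Transcription factors known to regulate Csf1r split in direction. Spi1, which encodes PU.1, fell in WT TAMs (-0.81, adjusted p = 0.000161) and in KO TAMs (-0.48, adjusted p = 0.00687), and Irf8 rose by 0.35 and 0.54. Of the 16 measured, 3 rose and 2 fell in WT TAMs, and 2 rose and 1 fell in KO TAMs, where 11.5% and 6.53% of all genes were called. Irf8 was also higher in the knockout, by 0.47 in macrophages and 0.66 in TAMs, calls that were lost when all probe sets of the gene were averaged (0.15, adjusted p = 0.452, and 0.37, adjusted p = 0.0516).

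**Figure D4:**
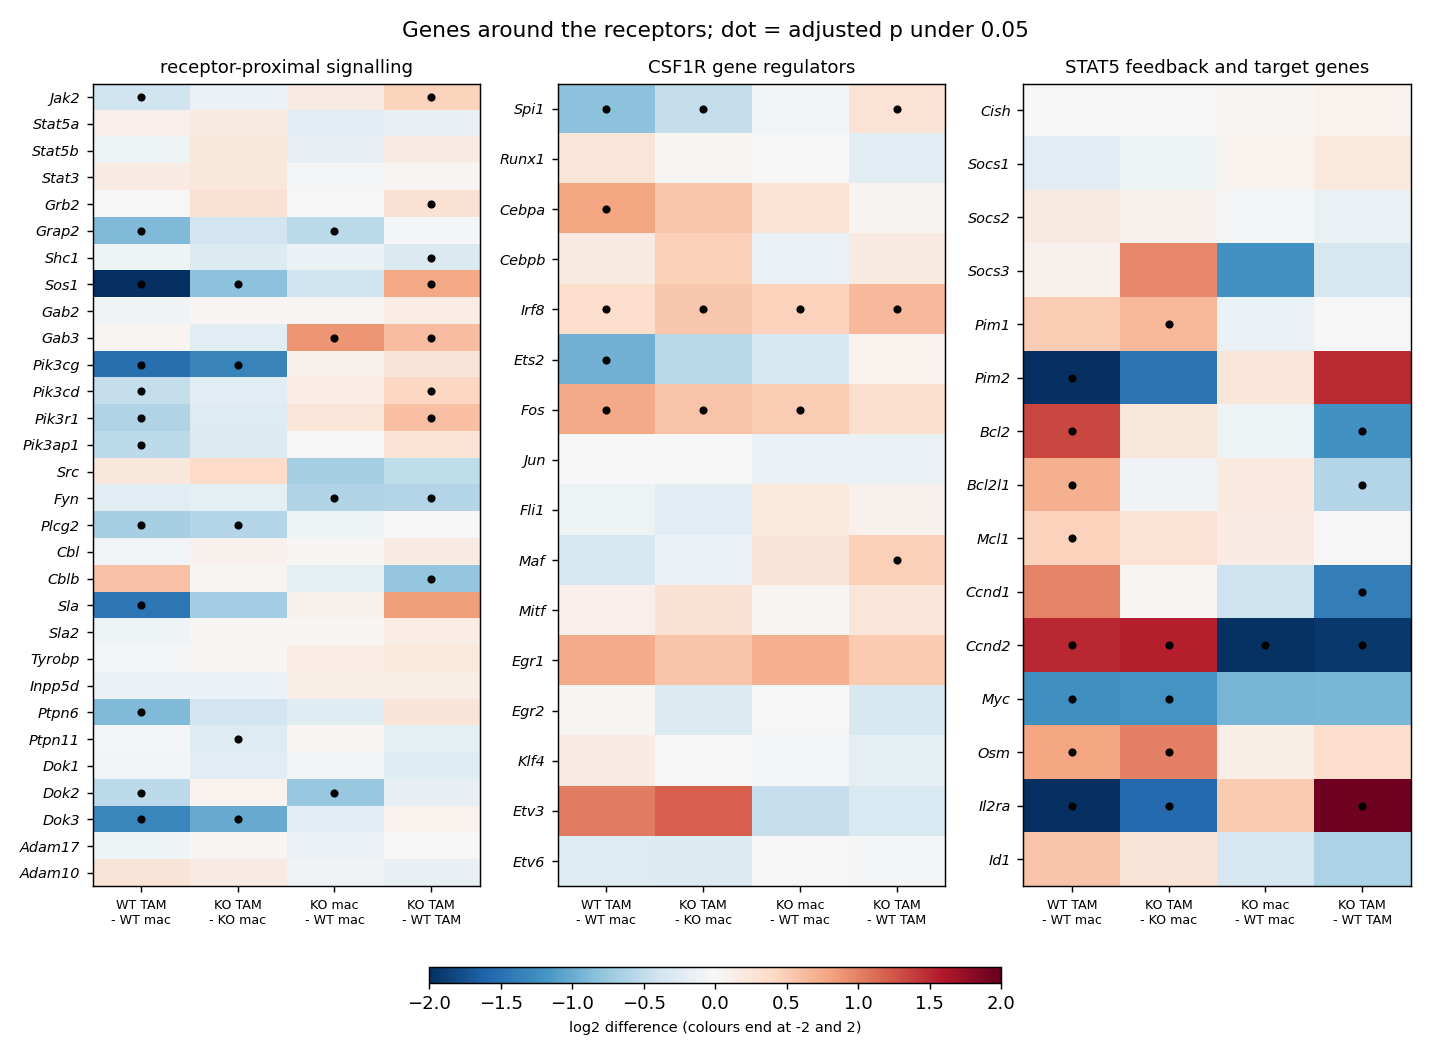
Log2 differences of measured genes of 3 lists (rows) in the 4 group comparisons (columns), red for higher and blue for lower in the first group named, with colours ending at -2 and 2; a dot marks an adjusted p under 0.05. In WT TAMs 12 of 30 receptor-proximal genes are blue with a dot and none is red with one, and Spi1 is lower and Irf8 higher in TAMs of both genotypes.

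STAT5 targets went both ways. Of 15, 5 rose and 3 fell in WT TAMs, where 11.5% of all genes were called, and 3 rose and 2 fell in KO TAMs, where 6.53% were. Il2ra, a STAT5 target that encodes an interleukin-2 receptor chain, fell in WT TAMs (-2.99, adjusted p = 0.000787), and so did the kinase gene Pim2 (-2.72). Bcl2, which protects cells from apoptosis, rose by 1.34 in WT TAMs (adjusted p = 2.48e-05) and had a difference of 0.23 in KO TAMs that did not pass. With all Bcl2 probe sets averaged the WT rise was 0.62 and still called. Ccnd2, a D-type cyclin, fell in KO macrophages (-1.98) and in KO TAMs (-1.93), the latter call lost in the fit of TAM groups alone (adjusted p = 0.0598). Cish, a direct STAT5 feedback gene, stayed between 5.05 and 5.54.

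Genes typical of macrophages grown in M-CSF and in GM-CSF were counted separately, and the lists were not tested against each other. Of 19 M-CSF genes, 10 rose and 1 fell in WT TAMs and 8 rose and none fell in KO TAMs, with medians of 0.43 in both, where 5.89% and 2.90% of all genes rose. The mannose receptor Mrc1 rose by 1.98 and 1.59, and Plau, the urokinase gene, by 2.13 and 1.19. Folr2, a folate receptor of tissue macrophages, was lower in KO than in WT macrophages (-1.56) and rose by 1.72 with co-culture in KO cells (adjusted p = 1.38e-05). Of 13 GM-CSF genes, 1 rose and 2 fell in WT TAMs, and 1 rose and 1 fell in KO TAMs, where 11.5% and 6.53% of all genes were called. The gene that rose was Fabp4 (3.97 and 4.30). Its call in KO cells was lost without KO macrophage 1 (adjusted p = 0.0585) and in the fit of KO groups alone (adjusted p = 0.0798). Its difference there was 2.98 without KO TAM 1. The transcription factor gene Batf3 fell in both (-1.45 and -1.10), and Il1b in WT TAMs (-1.86). The KO call of Batf3 was lost without KO macrophage 1 or 3 or KO TAM 1 and in the fit of KO groups alone (adjusted p up to 0.111). Cd9, a tetraspanin of the GM-CSF list, fell in KO macrophages (-2.42) and in KO TAMs (-1.85), and by less, though still called, when all its probe sets were averaged (-1.13 and -0.87).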

How the data were processed

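RNA of 12 samples of mouse primary macrophages, in 4 groups of 3, was measured on single-channel arrays. The authors deposited 1 table of intensity values, made with RMA per the submitters' processing notes, which also name limma and give no versions. Their range shows a linear scale, and log2 was taken with no offset. RMA removes differences in overall brightness, so a shift common to most genes would go unseen. The array's genome build is not stated in the labels.

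Of 41345 probe sets, 23521 had 1 gene symbol and were used. Where a gene had several, the one with the highest mean was kept, which left 22180 genes with no filter on level. The number of arrays limits the precision. Group means were fitted with limma 3.58.1 in R 4.3.3 (lmFit and eBayes, 8 residual degrees of freedom) and the script was tested on simulated data. The members and the 14 gene lists were chosen with earlier results of these data known. Of the 198 genes listed, 189 were measured and the others were not analysed here.

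Named list genes were, per comparison, up to 4 called members of a list with the largest difference, plus a fixed set of ligand, receptor and signalling genes. Other values of list genes, mainly levels of cell type markers and the Irf8 difference in WT TAMs, were named after they were seen. Genes like a member were the 3 with the highest Pearson correlation over 12 arrays. Alternatives covered normalization, filter, offset, probe set choice, array weights, the eBayes prior, the arrays in the fit, a replicate block and leaving out arrays. The replicate numbers are not stated to pair the arrays, so the main fit had no block. Same-numbered deviations from group means correlated at -0.06 to 0.27 (median 0.00372). Differently numbered ones correlated at -0.28 to 0.07 (median 0.00106). With 3 arrays per group these values cannot exclude a pairing.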

Additional observations from a re-analysis of the deposited data

Results flagged for a closer look

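The co-culture response differed between the genotypes, by the test of that difference, for 3 of the 189 measured list genes. None of the 8 family genes was among them. Over all 22180 genes 43 passed (0.194%), so a count of 0 among 8 does not set the family apart. Folr2 had a KO minus WT difference of 1.13 ± 0.16 (limma, adjusted p = 0.0171), with co-culture differences of 0.59 in WT and 1.72 in KO cells, a call lost without single arrays (adjusted p up to 0.0842). Fcgr1, a high-affinity Fc receptor, had 1.16 ± 0.12 (adjusted p = 0.00366), with 0.25 in WT and 1.40 in KO cells, and kept its call under every alternative run. Bcl2 had -1.11 ± 0.15 (adjusted p = 0.0122), with 1.34 in WT and 0.23 in KO cells, a call lost without single macrophage arrays (adjusted p up to 0.0552). With all Bcl2 probe sets averaged the difference was -0.43 and did not pass (adjusted p = 0.297).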

How the results depend on the processing

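Of the 12 differences called for the 8 genes, 4 kept their call under every alternative run (Csf1 between macrophages, Csf2ra in both genotype comparisons and Csf3r between TAMs), and none changed sign. Of the 123 called differences of named list genes, 62 kept theirs. Leaving out WT TAM 2 and KO TAM 1 together was chosen after seeing the data. The number of family genes called between WT TAMs and WT macrophages was 2, and became 4 with array weights, 1 with the trend and robust prior and 5 without those 2 arrays. Between KO TAMs and KO macrophages it was 4, and 0 when only these groups were fitted. Between macrophage genotypes it was 3, and 5 with array weights or with these groups alone. Between TAM genotypes it was 3, and 5 with array weights and 6 without the 2 arrays. For the difference between responses it was 0, and 1 with array weights and without the 2 arrays. Calls over all genes also depended on the alternative. Array weights took them from 2561 to 3976 in WT co-culture and from 2512 to 4923 between macrophage genotypes. They went from 2710 to 4725 between TAM genotypes and from 43 to 761 for the difference between responses. Without the 2 arrays they were 4049 in WT co-culture, 4480 between TAM genotypes and 1496 for the difference between responses. The trend and robust prior gave 2696 calls over all genes in WT co-culture. Fits of the compared groups alone gave 505 in KO co-culture, against 1449, and 4716 between macrophage genotypes. Leaving out 1 array gave 0 to 2, 1 to 4, 2, 3 to 5 and 0 to 1 family genes in these comparisons. Over all genes it gave 1475 to 2671, 611 to 1659, 1403 to 1503, 1749 to 3710 and 14 to 444. The Csf1r difference between TAM genotypes turned from 0.04 to -0.35 without the 2 arrays; the cause was not tested. With the replicate number as a block, the family counts were 2, 4, 4, 3 and 0 in the same order. The gene gained was Csf1r between macrophage genotypes. Over all genes the block gave 2423, 1326, 2311, 2564 and 26 calls. The signal over background of Csf2 and Il34 was not tested, and with 3 arrays per group the intervals of single genes stayed wide.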
